A study of Mus musculus with 6 samples.

Results

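Itga8, Ptn, Sfrp2, Gata3, Des, Art3, Serpine2, Postn and Bgn are genes expressed by mesangial cells, and in this series they were among the transcripts that fell most between whole glomeruli and dissociated glomerular cells. The 9 genes were chosen by name on that fall, out of 49492 genes in the bulk tables, and all 9 also had a row in the Drop-seq tables. Glomeruli, the small knots of capillaries through which blood is filtered into urine, came from 8-week-old male mice of the CD1 IGS outbred stock. 1 bulk library was made from 500 ng of RNA of whole, live, unfixed glomeruli, and 1 from 95 ng of RNA of dissociated glomerular cells that were fixed in 80% methanol in PBS and sorted. 4 Drop-seq libraries (replicates 1 to 4) were made from dissociated glomerular cells fixed in the same way. The mice carried no transgene or treatment that the labels name, and the labels did not say whether libraries shared animals, so the spread between replicates may be technical.

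Mesangial cells are contractile, pericyte-like cells that lie between the glomerular capillaries, embedded in a matrix that they make themselves, and they hold the capillary loops in place. They are attached to this matrix through integrins. They are close relatives of the renin-producing and smooth muscle cells of the arterioles at the glomerular stalk, and these relatives are called mural cells together with pericytes. The question here was which of the mesangial transcripts were left in the single cells, and in which barcodes they were found.

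The genes were grouped by the role of their products. Itga8 (GRCm38 chromosome 2, 12106632 to 12301922, minus strand) encodes the α8 integrin chain, which pairs with the β1 chain (Itgb1) to bind nephronectin (Npnt) in the matrix, and Art3 (chromosome 5, 92331827 to 92414628, plus strand) encodes a membrane-anchored protein of the ADP-ribosyltransferase family. Ptn (chromosome 6, 36714929 to 36810220, minus strand) encodes pleiotrophin, a secreted heparin-binding growth factor. Sfrp2 (chromosome 3, 83766321 to 83774316, plus strand) encodes a secreted modulator of Wnt signalling. Serpine2 (chromosome 1, 79794197 to 79861180, minus strand) encodes protease nexin 1, a secreted inhibitor of serine proteases such as thrombin and the plasminogen activators. Postn (chromosome 3, 54361109 to 54391037, plus strand) encodes periostin, a matrix protein, and Bgn (chromosome X, 73483602 to 73495933, plus strand) encodes biglycan, a small proteoglycan of the matrix. Gata3 (chromosome 2, 9857078 to 9890034, minus strand) encodes a zinc-finger transcription factor that mesangial cells share with the distal nephron and the collecting duct. Des (chromosome 1, 75360329 to 75368579, plus strand) encodes desmin, an intermediate filament protein of muscle and mural cells.

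The sequences just upstream of the start sites of the genes were read from the RefSeq promoter table (GRCm38.p6). It matched 9 of the 9 genes with 12 promoters, 3 of them for Art3 and 2 for Postn. The 250 bases before the start site of 4 of the genes are printed 5′ to 3′ on the gene's strand, in lower case with TATAAA, a common core promoter element, in capitals. Itga8 is shown for the highest read count of the 9 genes in whole glomeruli, Ptn for the largest fall, Sfrp2 for the largest share in mural-like cells and Postn for the fewest transcripts left.
Itga8, chr2:12301945-12302194, minus strand: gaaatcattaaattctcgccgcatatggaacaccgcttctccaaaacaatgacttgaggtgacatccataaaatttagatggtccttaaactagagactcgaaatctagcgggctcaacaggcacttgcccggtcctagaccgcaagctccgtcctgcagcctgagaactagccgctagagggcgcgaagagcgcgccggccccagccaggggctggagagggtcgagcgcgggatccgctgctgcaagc
Ptn, chr6:36810180-36810429, minus strand: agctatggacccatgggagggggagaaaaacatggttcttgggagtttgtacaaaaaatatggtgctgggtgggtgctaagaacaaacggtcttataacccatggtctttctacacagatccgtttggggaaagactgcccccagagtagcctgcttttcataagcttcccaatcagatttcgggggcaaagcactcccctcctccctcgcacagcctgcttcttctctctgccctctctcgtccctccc
Sfrp2, chr3:83766071-83766320, plus strand: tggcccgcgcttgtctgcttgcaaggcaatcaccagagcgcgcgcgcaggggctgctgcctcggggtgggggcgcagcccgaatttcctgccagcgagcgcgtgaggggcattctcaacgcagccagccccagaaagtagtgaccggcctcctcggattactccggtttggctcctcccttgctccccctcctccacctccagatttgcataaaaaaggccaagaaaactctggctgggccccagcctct
Postn, chr3:54360857-54361106, plus strand: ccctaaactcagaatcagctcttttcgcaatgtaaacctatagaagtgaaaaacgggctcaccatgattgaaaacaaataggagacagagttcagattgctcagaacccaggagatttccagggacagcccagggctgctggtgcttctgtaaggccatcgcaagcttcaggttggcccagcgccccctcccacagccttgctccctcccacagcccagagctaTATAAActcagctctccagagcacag
4 motifs were searched on both strands in the windows of 250 bases before to 50 bases after each start site. Neither AGATAA nor AGATAG, both binding sequences of GATA factors, was found in any of the 12 promoters, while 11.2% and 8.95% of 32851 promoters of the same length held them. The CArG box of serum response factor was not found either, against 1.63% of all promoters. TATAAA was found in 3 of the 12 promoters, once in Postn, 26 bases before its start site, and in 2 of the Art3 promoters, against 13.6% of all promoters. The motifs have different letters, and no 2 of them matched the same bases here. A match is a description of the letters, and its absence says only that they are not in this window.

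In bulk, each of the 9 genes was at least 13.6-fold lower in the dissociated cells than in whole glomeruli. These were the values that chose the genes, so they are given as a description, without a test, and with 1 library on either side there was no replicate check. Levels are counts per 1000000 reads on genes (CPM), and in Drop-seq per 1000000 UMIs. Folds are ratios of CPM scaled by the trimmed mean of M-values (TMM), with exact binomial 95% intervals that cover counting error alone. Itga8 had 37513 reads in whole glomeruli and 298 in dissociated cells, 1321 against 12.1 CPM, an 88.2-fold difference (78.7 to 99.1). Ptn went from 11802 to 74 reads, 415 to 3.01 CPM, and had the widest difference at 112-fold (88.9 to 142). The other secreted factors were Sfrp2, with 15848 and 189 reads (58.7-fold, 50.9 to 68.1), and Serpine2, with 21426 and 526 reads (28.5-fold, 26.2 to 31.2). Of the matrix genes, Postn kept 43 of 4439 reads (72.3-fold, 53.6 to 100.1) and Bgn 584 of 20876 (25.04-fold, 23.1 to 27.2). Gata3 went from 4312 to 87 reads (34.7-fold, 28.1 to 43.4) and Art3 from 2811 to 76 (25.9-fold, 20.6 to 32.98). Des kept the most: 541 reads against 10507, a 13.6-fold difference (12.5 to 14.9), or 7.35% of its level in whole glomeruli, while Ptn kept 0.895%. In bulk samples, fewer cells of a type and less RNA per cell cannot be told apart. The bulk libraries also differed at once in dissociation, methanol fixation, sorting and RNA input (500 and 95 ng), and these cannot be told apart either.

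Ranked among 12692 genes with at least 100 reads in the bulk libraries together, the falls of the 9 genes took places from 36 (Ptn) to 345 (Des), with a median log2 difference of -5.09 beside -0.02 for all genes. 9 of 9 were at least 2-fold lower, where 19.1% of all genes were. Because the genes were chosen on this contrast, nothing is read from that count. With CPM divided by kilobases of exon (RPKM), the order in whole glomeruli was Sfrp2 (259 RPKM), Itga8 (179), Ptn (121), Bgn (120), Des (98.5), Serpine2 (91.0), Gata3 (38.2), Art3 (25.2) and Postn (17.96). In dissociated cells the order per kilobase was Des (5.87), Bgn (3.90), Sfrp2 (3.57), Serpine2 (2.58), Itga8 (1.65), Gata3 (0.891), Ptn (0.878), Art3 (0.787) and Postn (0.201). Des, the fifth gene by level in whole glomeruli, was the first in the library of dissociated, fixed and sorted cells. With 1 library each, neighbours in these orders cannot be tested against each other.

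Genes of related cells, taken from lists of markers, give the setting of that fall. Of 14 other mesangial genes with enough reads, 11 were at least 2-fold lower and 2 at least 2-fold higher in dissociated cells (19.1% and 10.6% of all genes), with a median log2 difference of -3.99. The 2 higher genes, named after their values were seen, were Foxd1 (1284 to 2384 reads) and Tcf21 (6118 to 10467 reads). Of the lower ones, also named after their values were seen, the angiotensin receptor gene Agtr1a went from 12370 to 262 reads (33.1-fold). The ectonucleotidase gene Nt5e went from 9809 to 180 (38.2-fold) and the receptor gene Pdgfrb from 29439 to 3002 (6.87-fold). Igfbp5, a secreted binding protein of insulin-like growth factors, went from 195046 to 5952 reads (23.0-fold). By contrast, neither of the renin-cell genes reached 2-fold: Ren1 (renin) had 9261 and 5946 reads, a ratio of 1.09 (1.06 to 1.13), and Akr1b7 had 350 and 272. Smooth muscle markers were mixed, with 6 of 8 at least 2-fold lower (median -2.29), among them Myl9, a myosin light chain, at 10126 and 923 reads, while Acta2 (smooth muscle actin) had 2687 and 1951 reads, a ratio of 0.965 (0.910 to 1.02). The integrin partner Itgb1, which many cells express, had 50452 and 34307 reads, a ratio of 1.03. Of the 15 genes of interaction partners of the 9 products with enough reads, 7 were at least 2-fold lower and 2 higher. Genes outside the mural cells fell as well: 6 of 6 proximal tubule markers were lower, with a median log2 difference of -6.16, and 8 of 10 endothelial markers, with a median of -1.72, while 6 of 10 podocyte markers were higher. How far the cell types present in each sample entered the fall of the 9 genes was not tested.

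**Figure D1:**
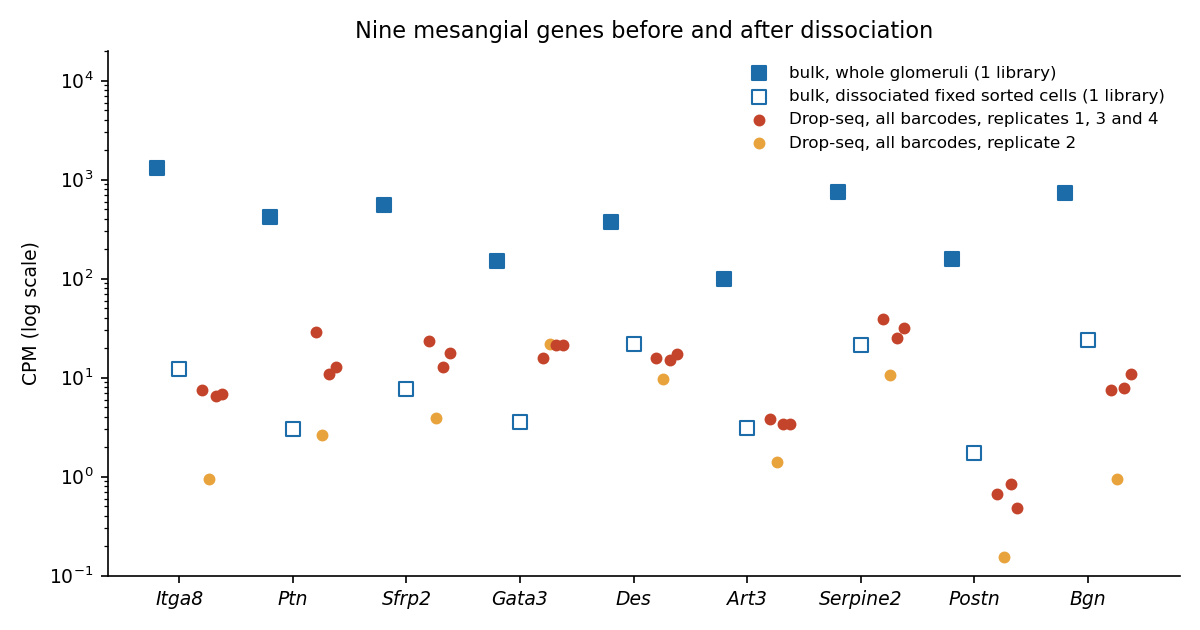
Level of the 9 genes in CPM (log axis), with filled squares for the bulk library of whole glomeruli, open squares for the bulk library of dissociated cells and points for the 4 Drop-seq libraries summed over all barcodes. The filled squares lie between 98.95 CPM (Art3) and 1321 CPM (Itga8), and every other value lies below 40 CPM.

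The Drop-seq tables held few transcripts of these genes. They count unique molecular identifiers (UMIs), so that each captured transcript is counted once. In 15465 barcodes with 18557558 UMIs, the 9 genes together had 1846 UMIs, found in 865 barcodes (5.59%). Over all barcodes Itga8 had 34, 6, 23 and 28 UMIs in replicates 1 to 4, 5.45 ± 3.05 CPM (SD, n = 4). Ptn had 129, 17, 38 and 53 UMIs (13.8 ± 10.9 CPM), and Sfrp2 105, 25, 45 and 74 (14.5 ± 8.30 CPM). In each of these genes replicate 2 was the lowest although it was the deepest library, with 6411775 UMIs against 3528543 to 4484108 in the other libraries. Serpine2 had 176, 68, 89 and 131 UMIs (26.7 ± 12.2 CPM), Bgn 34, 6, 28 and 45 (6.84 ± 4.203 CPM), and Art3 17, 9, 12 and 14 (2.996 ± 1.08 CPM). Postn, at 3, 1, 3 and 2 UMIs, was close to the limit of what these libraries can show. Gata3 did not share this order, with 70, 141, 76 and 88 UMIs, and was lowest in replicate 1 (15.6 CPM). Des had 70, 62, 53 and 71 UMIs, or 15.6, 9.67, 15.0 and 17.2 CPM, and was lowest in replicate 2 by CPM. Summed over the 9 genes, replicate 2 had 52.2 CPM and replicates 1, 3 and 4 had 142, 104 and 122 CPM.

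Set side by side with the bulk library of dissociated cells, which counts reads along whole transcripts and therefore cannot be compared in level with UMIs, Itga8 had 12.1 CPM there and 5.45 ± 3.05 in Drop-seq, Bgn 23.8 and 6.84 ± 4.203, Ptn 3.01 and 13.8 ± 10.9, and Gata3 3.54 and 20.1 ± 3.01. In both kinds of library of dissociated cells the 9 genes stayed below 40 CPM. The summed level of the genes was 4560 CPM in whole glomeruli, 98.5 CPM in the bulk library of dissociated cells and 105 ± 38.6 CPM in Drop-seq.

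Barcodes were grouped into cell types once 888 barcodes below 300 genes and 584 barcodes above 20% mitochondrial UMIs had been set aside. The 9 genes, the other mesangial genes, the partner genes and the fibroblast markers took no part in this clustering or in the naming of clusters. Of 13993 kept cells, 10445 were podocyte-like, 1857 endothelial-like, 925 tubular-like, 365 parietal epithelial-like, 314 mural-like and 51 immune-like, and 36 stayed unnamed. Mural-like cells formed a single cluster, named by its smooth muscle and renin markers, 12 of which were detected and 8 of which were among its 10 leading genes (Ren1, Acta2, Rgs5, Tpm2, Myh11, Myl9, Akr1b7 and Tagln). The mural-like cells numbered 103, 36, 64 and 111 in replicates 1 to 4, so the replicate with the lowest level of most of the 9 genes was also the one with the fewest mural-like cells. How much of the low level in replicate 2 went with its number of mural-like cells was not tested. All 4 libraries shared 7 barcodes, and 3 kept barcodes stood in more than 1 library.

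Of the 1622 UMIs of the 9 genes in kept cells, 935 lay in the 314 mural-like cells. Per library these cells held 67.6%, 27.1%, 57.5% and 64.5% of the UMIs, 54.2% ± 18.5 (SD, n = 4), while they made up 2.33% ± 1.12 of the kept cells. Replicate 2 lay apart from the other libraries, and without it the share was 63.2%. Gata3 and Des were widespread in other cells, and without these genes the mural-like cells held 80.1%, 54.8%, 74.6% and 78.1%. Shares over the 4 libraries together were 86.7% for Sfrp2, 84.8% for Ptn, 79.8% for Itga8, 76.2% for Bgn, 69.0% for Serpine2, 55.6% for Postn (5 of 9 UMIs), 37.3% for Art3, 23.3% for Des and 16.8% for Gata3.

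**Figure D2:**
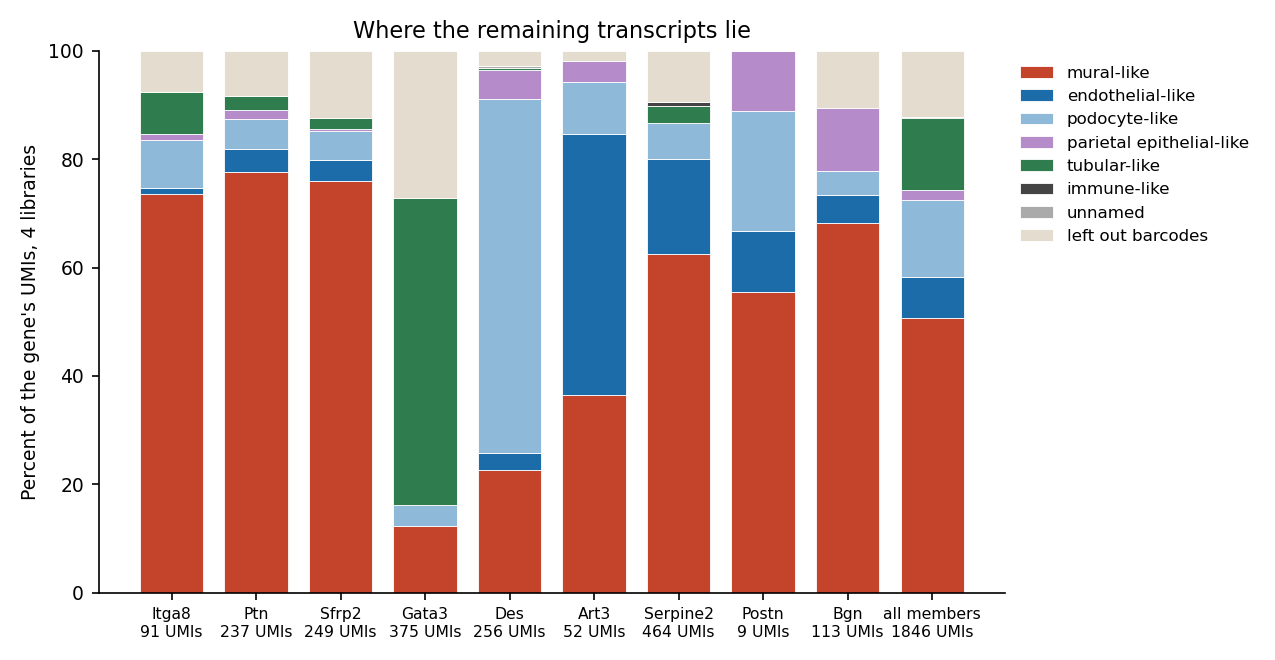
Percent of each gene's UMIs (all barcodes of 4 libraries, number under each bar) that lay in each cell type or in barcodes left out of the clustering, as stacked bars that add up to 100. The mural-like part is above 60% for Itga8, Ptn, Sfrp2, Serpine2 and Bgn, while tubular-like cells hold the largest part of Gata3, podocyte-like cells of Des and endothelial-like cells of Art3.

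Each of the 8 genes with enough UMIs was higher in mural-like cells than in the mean of the other 4 types, in edgeR's quasi-likelihood test on UMIs summed per library and cell type (adjusted p under 0.05, Benjamini-Hochberg over 15446 genes). Of all genes tested, 6.81% were called higher in mural-like cells. Postn did not reach 20 UMIs over all sums and was not tested. Itga8 reached 20 UMIs only through mural-like cells, which held 67 of its 84 UMIs in kept cells. The 8 genes had a median log2 difference of 6.74, beside -0.30 for all genes.

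Of the secreted factors, Ptn had 1030.2, 283, 497 and 465 CPM in mural-like cells of replicates 1 to 4, and at most 21.0 CPM in any other type and library. Replicate 1 was the highest and replicate 2 the lowest, and all 4 values stood above all values of the other types, with a log2 difference of 6.85 ± 0.27 (SE) and an adjusted p of 6e-137 in edgeR's test. Sfrp2 had 807, 489, 562 and 609.8 CPM in mural-like cells and at most 11.99 CPM in any other type and library. Its log2 difference was 7.51 ± 0.28 (SE; adjusted p 2.5e-151, edgeR). Serpine2 had 1189.5, 695, 850.3 and 1012.9 CPM in mural-like cells and was higher than the mean of the other types in 4 of 4 libraries (adjusted p 4.2e-212, edgeR). It was not at 0 outside them, since endothelial-like cells held 56.4, 68.7, 38.8 and 66.2 CPM.

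Of the surface proteins, Itga8 had 255, 77.2, 241 and 258 CPM in mural-like cells and at most 11.99 CPM in any other type and library. Replicate 2, with 3 UMIs, stood far below the other libraries, and the log2 difference was 6.71 ± 0.43 (SE; adjusted p 1.4e-51, edgeR). Itga8 entered this test only through the group in which it was high, so its call adds little beyond these levels. Art3 was the least regular of the 8 genes: 117, 51.5, 80.2 and 10.3 CPM in mural-like cells, with 11, 2, 5 and 1 UMIs behind these values. It was higher than the mean of the other types in 4 of 4 libraries for every other tested gene, but in 3 of 4 for Art3 (adjusted p 2.8e-12, edgeR).

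The matrix gene Bgn had 266, 154, 273 and 299.7 CPM in mural-like cells (adjusted p 8.2e-58, edgeR), and Postn, the other matrix gene, had 1, 1, 3 and 0 UMIs there. The 5 Postn UMIs lay in 4 of the 314 mural-like cells. Gata3 had 117, 51.5, 193 and 217 CPM in mural-like cells (adjusted p 1.6e-28, edgeR), and Des had 191, 154, 144 and 258 CPM (log2 difference 4.64 ± 0.38, SE; adjusted p 1.1e-31, edgeR). For scale, the bulk library of whole glomeruli, in which mesangial cells are mixed with all other cells, had 1321 CPM of Itga8, 415 of Ptn and 558 of Sfrp2, where mural-like cells had 208 ± 87.4, 569 ± 322 and 617 ± 136 (SD, n = 4). Reads of a bulk library grow with transcript length and UMIs do not, so these levels stand side by side without a comparison.

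**Figure D3:**
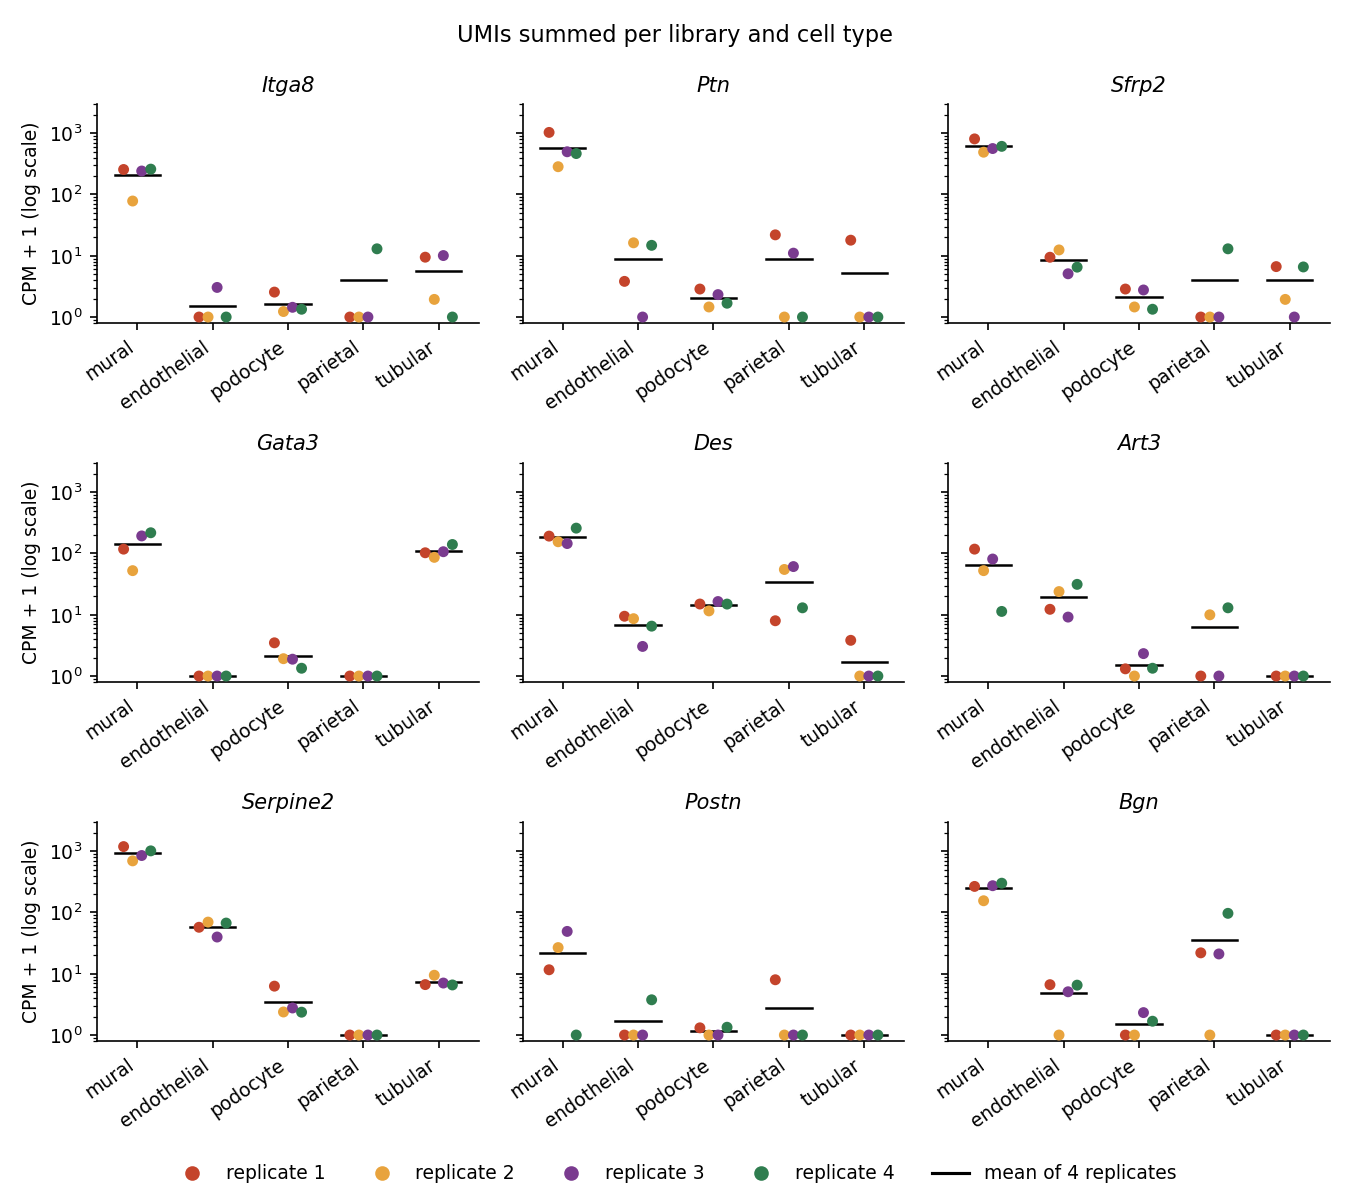
CPM + 1 (log axis) of each gene in UMIs summed per library and cell type, with 1 point per replicate and a bar at the mean of 4 replicates. Points at 1 stand for 0 UMIs. The mural-like points lie above those of every other type for Itga8, Ptn, Sfrp2, Serpine2, Des and Bgn, and overlap with tubular-like cells for Gata3 and with endothelial-like cells for Art3.

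Gata3 had a second site in tubular-like cells, which held 212 of its 273 UMIs in kept cells. Tubular-like cells had 102, 85.5, 106 and 139 CPM, a range inside that of mural-like cells, and 159 of 925 tubular-like cells had a Gata3 UMI. Gata3 was the 1 gene of the 8 called higher there (adjusted p 9.9e-64, edgeR), where 24.5% of all genes were. Clustered again, the tubular-like cells held Gata3 in 10 of 11 subclusters, and most of it, 175 of 212 UMIs, lay in 7 subclusters with 57.3 to 123 CPM. The most UMIs, 62, were in 166 cells (107 CPM) that carried Slc12a3, the cotransporter gene of the distal convoluted tubule, at 4874 CPM. The other 3 subclusters held 37 UMIs. Gata3 stood at 208 CPM (Poisson 95% interval 131 to 316, counting error alone), with 0, 12, 6 and 4 UMIs in replicates 1 to 4, in the 68 cells led by Fxyd4 and the water channel genes Aqp2 and Aqp3 of collecting duct principal cells, at 147 CPM (80.1 to 246) in the 54 cells led by the proton pump gene Atp6v1g3 of intercalated cells, and at 27.9 CPM (0.708 to 156) in the 22 cells led by Slc12a1, the cotransporter gene of the thick ascending limb. These intervals overlap. Gata3 had no UMI in endothelial-like cells, which allows up to 2.04 CPM, and none in parietal epithelial-like cells, which allows up to 6.85 CPM. Its summed level in mural-like cells was at least 77.1-fold higher than the first of these limits and at least 23.0-fold higher than the second, with 3 UMIs over the group as the floor.

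Des had most of its remaining UMIs in podocyte-like cells, 167 of 249, spread over 149 of 10445 cells. Its level there was low and even, 13.97, 10.6, 15.4 and 13.9 CPM, below the 144 to 258 CPM of mural-like cells. It did not pass the test in podocyte-like cells (log2 difference 0.32 ± 0.34, SE; adjusted p 0.53, edgeR), where 0 of the 8 genes were called higher by edgeR or by DESeq2, 0 at an unadjusted p under 0.05, and 24.4% of all genes were. The Des level in podocyte-like cells was above the tubular-like level in all 4 libraries, where 1 UMI was found among 2107060, and above the 2.04 to 8.46 CPM of endothelial-like cells. Podocyte-like clusters had between 5.32 and 17.6 CPM. Parietal epithelial-like cells had 6.98, 53.9, 60.2 and 11.99 CPM of Des, with no call (adjusted p 0.11, edgeR).

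Art3 and Serpine2 were called higher in endothelial-like cells, 2 of the 8 genes, where 19.0% of all genes were called higher. Serpine2 had 57.5 ± 13.6 CPM there (SD, n = 4), from 81 UMIs in 69 cells (adjusted p 1.1e-09, edgeR). It was below the mean of the other types in 4 of 4 libraries on the CPM scale, since mural-like cells raise that mean, whereas the test averages on the log scale. Art3 had 11.3, 22.9, 8.17 and 30.4 CPM (adjusted p 3.7e-06, edgeR). 19 of the 25 Art3 UMIs lay in 1 small cluster of 123 cells led by Fbln5, Mgp and Jag1, genes known from arterial endothelium, where the level was 211, 346, 146 and 129 CPM, while the 1734 other endothelial-like cells held 6. With no limit on mitochondrial UMIs this cluster stayed unnamed, and the Art3 call was lost (adjusted p 0.59, edgeR). In that small cluster Art3 was higher in CPM than in mural-like cells in 4 of 4 libraries, and the difference was not tested. 4 UMIs of Bgn and 7 of Serpine2 were also found in it.

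Bgn was the 1 gene called higher in parietal epithelial-like cells, the cells that line Bowman's capsule, where 4.39% of all genes were called. It had 3, 0, 2 and 8 UMIs there, or 21.0, 0, 20.1 and 95.9 CPM (adjusted p 0.00041, edgeR). Replicate 4 decides this call, since without it the adjusted p was 0.24. The same cells carried smooth muscle markers at 532 to 1199 CPM, most of it Tagln at 684 ± 227 CPM, while Acta2 stood at 11.01 ± 12.8 CPM. Serpine2 had no UMI in parietal epithelial-like cells, so its summed level in mural-like cells was at least 145-fold higher.

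Among mural-like cells, 198 of 314 held a UMI of any of the 9 genes, 58.3%, 66.7%, 68.8% and 63.1% in replicates 1 to 4, 64.2% ± 4.599 (SD, n = 4). The share is close in all 4 replicates, unlike the number of mural-like cells. When each cell was thinned to 500 UMIs, leaving out 43 shallower cells, 48.9% ± 4.65 held one. In podocyte-like cells the share was 2.10% ± 0.246 before thinning and 0.926% ± 0.283 after. Podocyte-like cells had a median of 1017 UMIs against 777 in mural-like cells, and their share was the lowest of the other 4 types. Before thinning it was 6.36% ± 2.10 in endothelial-like, 8.94% ± 4.41 in parietal epithelial-like and 19.0% ± 4.33 in tubular-like cells. After thinning these shares were 4.22%, 4.51% and 4.94%. Gata3 made up most of the tubular-like share, which was 2.46% ± 0.755 without Des and Gata3. Without Des the podocyte-like share was 0.642% ± 0.220. By gene, the share of mural-like cells with a UMI was 40.7% ± 1.54 for Serpine2, 24.7% ± 5.35 for Sfrp2, 19.2% ± 2.20 for Bgn, 15.2% ± 1.13 for Des, 14.3% ± 5.59 for Ptn, 12.9% ± 3.36 for Itga8, 9.85% ± 3.38 for Gata3, 4.49% ± 2.54 for Art3 and 1.72% ± 1.48 for Postn. The podocyte-like shares were between 0.0189% (Postn) and 0.205% (Serpine2) for the genes other than Des.

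The transcripts were concentrated in few of the mural-like cells. 116 of the 314 held none of the 9 genes, 86 held 1, 46 held 2, 30 held 3 and 36 held 4 or more different ones. These 36 cells carried 543 of the 935 UMIs at a median depth of 785 UMIs, about that of the 746 in cells with none of the genes. They came from all 4 libraries, with 15, 3, 6 and 12 cells. Serpine2 was found in 36 of the 36, Sfrp2 in 32, Ptn in 30, Itga8 in 25, Bgn in 23, Des in 17, Gata3 in 15, Art3 in 6 and Postn in 4.

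The same genes were found in the same cells. Of the 48 mural-like cells with Ptn, 33 (68.8%) also held Sfrp2, where 16.9% of the mural-like cells without Ptn did. Of the 44 cells with Itga8, 28 (63.6%) held Ptn, against 7.41% of the cells without Itga8, and the median depth of cells with and without Itga8 was 777 and 774 UMIs. Of the 33 cells with Gata3, 12 (36.4%) held Itga8, against 11.4% without. All 4 mural-like cells with Postn held Ptn, Sfrp2 and Serpine2. These counts describe cells of the 4 libraries together, which are not replicates, and have no test.

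Summed over cells, those with 4 or more of the 9 genes had lower smooth muscle markers, with single cells that did not. The 36 cells with 4 or more of the genes had 3008 CPM of the 10 smooth muscle markers together, against 21696 CPM in the 116 cells with none. Acta2 stood at 617 CPM in the former and 5464 CPM in the latter, and Myh11, the smooth muscle myosin heavy chain, at 25.7 and 2348 CPM. In 28 of the 36 cells, Acta2, Tagln, Myh11 and Ren1 were all at 0. A UMI of any of the 10 smooth muscle markers was found in 28 of the 36 cells (77.8%) and in 112 of the 116 (96.6%). Cells with 1, 2 and 3 of the 9 genes had 22628, 24401 and 11753 CPM of these markers, so the level did not fall step by step. Renin markers summed to 9795 and 4179 CPM, but 9384 CPM of the first value was Ren1 from 3 of the 36 cells. By cells, 7 of the 36 (19.4%) held a renin marker, against 51 of the 116 (44.0%). Other mesangial genes, which were not used to count, went the other way: 7970 CPM in the 36 cells and 2924 CPM in the cells with none. A large part of these sums was Igfbp5, at 3496 and 455 CPM. Igfbp5 is not particular to mural-like cells: they had 960.5 ± 226 CPM and endothelial-like cells 1476 ± 309 (SD, n = 4). Endothelial markers were also higher, at 2699 and 648 CPM, with a UMI in 15 of the 36 cells and in 22 of the 116. Endothelial-like cells had 8580 ± 467 CPM of these markers. The part of endothelial transcripts in these values was not tested.

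**Figure D4:**
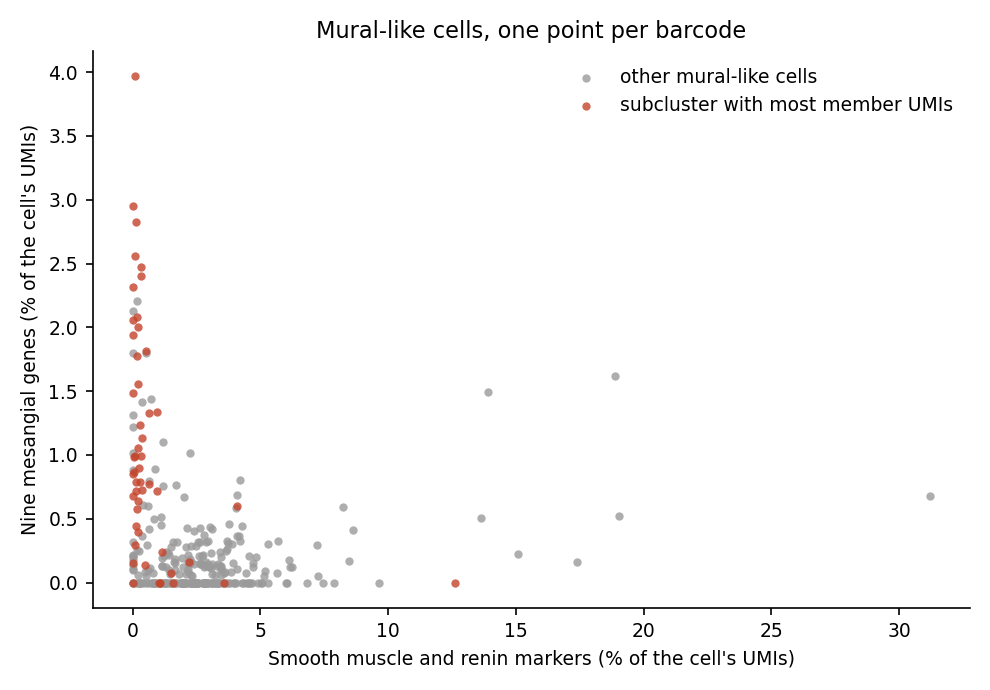
Each point is 1 of the 314 mural-like cells, placed by the percent of its UMIs that are smooth muscle or renin markers (horizontal axis) and by the percent that are of the 9 mesangial genes (vertical axis). Red points are the 50 cells of the subcluster with most of the mesangial UMIs. Of the 33 cells at 1% or more on the vertical axis, 29 lie under 1% on the horizontal axis and 2 lie above 10% (13.9% and 18.9%), and the red points hold 54.2% of the UMIs of the 9 genes in mural-like cells.

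A second clustering of the mural-like cells, again without the 9 genes but with the other mesangial genes, gave 6 subclusters, and 1 of them, with 50 cells (25, 5, 6 and 14 in replicates 1 to 4), held 507 of the 935 UMIs. The summed level of the 9 genes in it was 8698, 7219, 11867 and 10819 CPM in the 4 replicates, and in none of the other 5 subclusters did any replicate exceed 3382 CPM. Ptn stood at 2726 CPM there (Poisson 95% interval 2304 to 3202), Serpine2 at 2560 (2152 to 3023), Sfrp2 at 1805 (1465 to 2200), Itga8 at 792 (573 to 1067), Bgn at 460 (298 to 680), Des at 387 (239 to 591), Gata3 at 276 (155 to 456), Art3 at 258 (141 to 433) and Postn at 73.7 (20.1 to 189). 24 of the 36 cells with 4 or more of the genes lay in it. Its leading genes were Ctla2a, Ly6a, Cd34, H2-Q1, Srgn, Nt5e, Vcam1 and Nostrin. They hold the mesangial marker Nt5e beside genes known from endothelial cells, so the subcluster was left unnamed. Endothelial markers summed to 3168 CPM in it and to between 149 and 760 CPM in the other 5 subclusters.

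The subcluster with the second-highest level, 78 cells with Ren1 among the leading genes (15888 CPM of Ren1 and 26265 CPM of smooth muscle markers), had 2918, 1832, 3286 and 3382 CPM of the 9 genes. Serpine2 (1158 CPM) and Sfrp2 (777 CPM) made up most of it, while Ptn stood at 132 CPM and Itga8 at 161 CPM. Ptn and Itga8 were thus concentrated in the subcluster of 50 cells, and Serpine2 and Sfrp2 were found in both. The remaining subclusters were 65 cells with 30811 CPM of smooth muscle markers and 1475 CPM of the 9 genes, 59 cells with 1496 CPM, 27 cells with 1045 CPM, and 35 cells led by podocyte genes (13073 CPM of podocyte markers) with 942 CPM. At a lower resolution, chosen after the data were seen, 3 subclusters remained and the richest, with 140 cells, held 78.8% of the UMIs. These 140 cells had 16902 CPM of smooth muscle and 11654 CPM of renin markers, where the subcluster of 50 cells had 4107 and 3757 CPM. A subcluster low in smooth muscle markers and rich in the 9 genes was thus seen only at the higher resolution. These values describe the subclusters and have no test.

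Outside the mural-like cells, barcodes with several of the genes were rare. 1 podocyte-like, 1 endothelial-like and 1 tubular-like cell held 4 or more of the 9 genes, against 36 mural-like cells. Among the barcodes left out of the clustering, 5 held 4 or more, all with fewer than 300 detected genes. The 888 barcodes with fewer than 300 genes held 120 UMIs of the 9 genes, 456, 51.2, 449 and 290.1 CPM in replicates 1 to 4, where kept cells had 133, 48.5, 95.8 and 122 CPM. The level was thus higher in the barcodes with few genes in replicates 1, 3 and 4. In replicate 2 the values were close, and the first came from Gata3 (34.1 CPM) and Serpine2 (17.1 CPM) alone, so no direction is read there. Sfrp2 had 29 UMIs there (85.6 CPM, against 12.7 in kept cells), Serpine2 36 (106 and 24.5 CPM) and Ptn 19 (56.1 and 12.6 CPM), while smooth muscle markers stood at 608 and 388 CPM and renin markers at 655 and 125 CPM. The 584 barcodes with many mitochondrial UMIs held 88 UMIs of Gata3 and 16 of the other genes, and 558 of them were tubular-like when clustered without the limit.

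Other genes of the pathways around the 9 products were read from lists that were chosen with earlier results known. Of 14 other mesangial genes tested, 12 were higher in mural-like cells and 1 was lower (median log2 difference 4.74), where 6.81% and 5.81% of all genes were. Against all other kept cells summed, 11 were higher and 2 lower (median log2 difference 4.04). The share of all genes called was not counted for this contrast, so nothing is read from these counts. Hopx, a homeodomain-only cofactor, had 969 ± 181 CPM (SD, n = 4), Igfbp5 960.5 ± 226, Pde3a, a phosphodiesterase, 571 ± 180.3, Fhl2, a LIM-domain protein, 342 ± 101.04, and Gucy1b3, a soluble guanylate cyclase subunit, 304 ± 39.4. Igfbp5 was higher still in endothelial-like cells (1476 ± 309 CPM). Tcf21, known from podocytes and stromal progenitors and named after its value was seen, was lower in mural-like cells (log2 difference -1.77).

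Of 12 partner genes tested, 3 were higher and 4 lower in mural-like cells, where 6.81% and 5.81% of all genes were. Itgb1, the partner chain of Itga8, had 977 ± 94.1 CPM in mural-like cells, where podocyte-like cells had 1210 ± 126, and did not pass the test in mural-like cells (adjusted p 0.33, edgeR). Vim, the filament partner of desmin, had 1427 ± 128 CPM in mural-like cells and was lower there than in the mean of the other types (log2 difference -0.43). Plat, tissue plasminogen activator and a target of Serpine2, had 460.0 ± 263 CPM in mural-like cells and 2216 ± 259.9 in endothelial-like cells, and was also lower (-1.07). Ncl, a cell-surface binding partner of pleiotrophin, and F2r, the thrombin receptor, did not pass (652 ± 92.2 and 149 ± 78.1 CPM). Against all other kept cells summed, a contrast in which podocyte-like cells weigh most, 2 partner genes were higher and 6 lower. Itgb1 (log2 difference -0.48, adjusted p 0.017, edgeR) and F2r (-0.87, adjusted p 0.0045, edgeR) were among the lower ones. Without the share of all genes for this contrast, nothing is read from these counts either. Npnt, the ligand of the Itga8 integrin, was named after its value was seen: podocyte-like cells had 1066 ± 59.7 CPM and mural-like cells 117 ± 70.2 (SD, n = 4), and its log2 difference in mural-like cells was -2.04.

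Fibroblast markers together had 209 ± 52.3 CPM in mural-like cells (SD, n = 4). The level was 576 ± 110 CPM in endothelial-like, 115 ± 18.6 in podocyte-like, 87.4 ± 65.2 in parietal epithelial-like and 20.7 ± 8.54 in tubular-like cells. By gene, mural-like cells held 11 UMIs of Col1a1 (84.6% of those in kept cells), 3 of Col3a1 (100%) and 1 of Pdgfra (20%). Lum and Mfap5 had no row in the Drop-seq tables. Col1a2 was the 1 of 2 tested that was higher (121 ± 19.5 CPM, where podocyte-like cells had 112 ± 19.3). Against all other kept cells summed this call was lost (log2 difference 0.04, adjusted p 0.95, edgeR). Pi16 had 27.8 ± 38.7 CPM in mural-like and 556 ± 112 in endothelial-like cells. In bulk Pdgfra went from 3543 to 19 reads (131-fold lower, 83.5 to 217).

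Over the 20 sums of 5 cell types and 4 libraries, the 5 genes whose log2(CPM + 10) followed the summed level of the 9 genes most closely were Pcp4l1 (Pearson r 0.943), Btbd3 (0.943), Sept4 (0.937), Pdgfa, a ligand of PDGF receptors (0.935), and Rcan2 (0.934), out of 15438 genes. These sums share libraries and are dominated by the contrast between mural-like cells and the rest, so the r is a description without a test. In mural-like cells Pcp4l1 had 759 ± 176 CPM, Rcan2 364 ± 76.1 and Pdgfa 307 ± 89.7 (SD, n = 4).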

How the data were processed

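The deposited Drop-seq tables hold UMI counts per gene and barcode, and the deposited bulk tables hold read counts per gene. STAR and HTSeq are named in the submitters' processing notes, without versions. The genome build and the strand setting are not given in the sources used here. Per the labels' protocols, bulk libraries were made with a stranded mRNA kit. In the bulk tables, 9.68% and 6.14% of reads (whole, dissociated) fell in no feature and were left out of library sizes, as were ambiguous and multiply aligned reads. Gene positions come from the GENCODE annotation of GRCm38.

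The 9 genes and the gene lists were chosen with earlier results of these data known. Barcodes with at least 300 genes and at most 20% mitochondrial UMIs were scaled to 10000 UMIs and clustered with scanpy 1.11.5 (2000 variable genes, 30 components, 15 neighbours, Leiden resolution 1.0). Doublets were not removed. Of the mural-like cells, 26.4% held at least 2 markers of each of 2 types, and an alternative left such cells out. Types with 20 or more cells in 3 or more libraries entered the test. Their UMIs, added up by library and type, were fitted with edgeR 4.0.16 in R 4.3.3 (quasi-likelihood, TMM, library as block, genes with 20 or more UMIs). The contrast set a type against the average of the other 4. DESeq2 1.42.0 was an alternative. P-values measure only the spread between these libraries. On simulated counts the mural-like test recovered 19% of genes changed 2-fold and 53% of those changed 4-fold, with 18 false calls among 15135 genes. Library pairs differed by more than sampling noise (chi-square per degree of freedom 4.37 to 14.1). Bulk log2 differences used a prior count of 2 and genes with at least 100 reads. Intervals and floors (3 UMIs, 95%) cover counting error only. Named genes of each list are at most 5, those with the highest mean CPM in mural-like cells, and further genes are marked as named after their values were seen.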

Additional observations from a re-analysis of the deposited data

Results flagged for a closer look

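Of 29 values tested over the 4 Drop-seq libraries, 5 had 1 library whose gap to the nearest other library was past Dixon's 95% critical value, and chance gives such a gap in about 1 in 20 groups. Replicate 2 was low for Itga8 over all barcodes (0.936 CPM), for Itga8 in mural-like cells (77.2 CPM) and for Art3 over all barcodes (1.40 CPM). Replicate 1 was low for Gata3 over all barcodes (15.6 CPM) and high for Serpine2 in podocyte-like cells (5.28 CPM).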

How the results depend on the processing

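The 9 genes were at least 2-fold lower in dissociated bulk under all 5 alternatives, which included library size alone, DESeq2 size factors and a 4-fold threshold. In mural-like cells all 8 tested genes stayed higher under each of 13 alternatives. 1 of these, against all other kept cells summed, was chosen after seeing the data, as was resolution 0.5. With a minimum of 1 UMI Postn was also called, 9 in all. At the main UMI minimum Itga8 entered only through mural-like cells, also with any 1 library left out. The same held for Ptn, Sfrp2 and Bgn without replicate 1, for Bgn without replicate 3, and for Bgn and Art3 without replicate 4. Such calls add little beyond the levels. Without the replicate block, which is the library here, the counts of genes called higher were 8 in mural-like, 0 in podocyte-like, 2 in endothelial-like, 1 in parietal epithelial-like and 1 in tubular-like cells, the same as with it. In endothelial-like cells the count was 1 with no mitochondrial limit, where the log2 difference of Art3 was 0.50 (adjusted p 0.59, edgeR). In parietal epithelial-like cells the count was 2 with library size alone and 2 without cells holding markers of 2 types, and it ranged from 0 to 2 when 1 library was left out. Without replicate 4 the log2 difference of Bgn there was 2.06 (adjusted p 0.24, edgeR). The cause of these changes was not tested. The share of the UMIs of the 9 genes in mural-like cells ranged from 49.7% to 63.2% when 1 library was left out. Over all 9 settings, the main one included, its lowest value was 44.1%. The share of mural-like cells with a UMI was 48.9% after thinning to 500 UMIs a cell. At resolution 0.5 the richest mural-like subcluster, with 140 cells, held 78.8% of the UMIs of the 9 genes in mural-like cells. It was also high in smooth muscle markers (16902 CPM), unlike the richest subcluster of the main setting (4107 CPM). Postn, with 9 UMIs, is limited by depth.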
